A study of Mus musculus with 12 samples.

Results

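The type I interferon antiviral effector genes examined here were 42 named genes whose products act on viral RNA, viral proteins or the membranes that viruses use. They were chosen by name and known role, with earlier results of these data known. They come from 13828 named genes and 25599 features (genes or unnamed probes) that were measured. All 42 had a probe that rose well above background on 2 or more arrays of the 12, and 39 were well above background on all 12. Gene expression was measured on Agilent 1-colour arrays in CD8+ T cells of female C57BL/6 mice that were wild type (WT), labelled AID KO or labelled uMT. Total CD8+ T cells were taken from the peripheral (PLN) or the gut-draining mesenteric (MLN) lymph nodes, and their 8 arrays were WT PLN replicates 1 and 2, WT MLN replicates 1 and 2, and 1 each of AID KO PLN, uMT PLN, AID KO MLN and uMT MLN. The other 4 arrays held naive cells (low CD44) from PLN of AID KO and uMT mice, each sorted into fractions named Sca1p and Sca1m, with no WT array among them. The uMT mice, with a disrupted membrane exon of the mu heavy chain, have no mature B cells. The uMT mutation is in the germ line and is not restricted to a cell type.

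Type I interferons bind the receptor IFNAR1/IFNAR2, whose kinases JAK1 and TYK2 activate STAT transcription factors. With IRF9 these form ISGF3, which binds the interferon-stimulated response element (ISRE) in promoters and switches on the effector genes. CD8+ T cells respond to interferon with this program without needing to be infected, and its genes are widely read as a sign that cells have recently met interferon.

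The promoters of 7 members are shown because they carry the element through which ISGF3 is known to act, or lack its core. Each is the 250 bases before the annotated start, 5′ to 3′ on the gene's own strand, from RefSeq on GRCm38.p6. Capitals mark each match to the ISRE core, GAAA then any 2 bases then GAAA, on either strand (TTTC, any 2 bases and TTTC on the other), and overlapping matches run together. The 7 windows are chr12:26456453-26456702 (minus strand) for Rsad2, chr19:34607707-34607956 (plus) for Ifit3b, chr19:34583279-34583528 (plus) for Ifit3, chr19:34640639-34640888 (plus) for Ifit1, chr4:156200819-156201068 (minus) for Isg15, chr8:71537473-71537722 (minus) for Bst2 and chr3:151749911-151750160 (minus) for Ifi44.
Rsad2: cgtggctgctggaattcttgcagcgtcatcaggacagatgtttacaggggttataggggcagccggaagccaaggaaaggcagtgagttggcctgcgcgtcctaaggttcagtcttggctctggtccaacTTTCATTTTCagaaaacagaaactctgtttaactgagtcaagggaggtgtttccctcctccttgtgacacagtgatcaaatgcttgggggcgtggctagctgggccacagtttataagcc
Ifit3b: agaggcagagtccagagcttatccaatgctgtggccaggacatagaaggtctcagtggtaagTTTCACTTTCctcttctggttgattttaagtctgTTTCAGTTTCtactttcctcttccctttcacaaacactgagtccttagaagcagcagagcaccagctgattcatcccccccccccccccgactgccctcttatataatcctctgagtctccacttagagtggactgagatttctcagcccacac
Ifit3: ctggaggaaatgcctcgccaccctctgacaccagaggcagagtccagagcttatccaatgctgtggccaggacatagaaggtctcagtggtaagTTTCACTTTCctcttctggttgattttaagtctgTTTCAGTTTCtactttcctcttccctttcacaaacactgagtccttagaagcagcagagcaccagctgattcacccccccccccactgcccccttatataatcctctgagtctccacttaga
Ifit1: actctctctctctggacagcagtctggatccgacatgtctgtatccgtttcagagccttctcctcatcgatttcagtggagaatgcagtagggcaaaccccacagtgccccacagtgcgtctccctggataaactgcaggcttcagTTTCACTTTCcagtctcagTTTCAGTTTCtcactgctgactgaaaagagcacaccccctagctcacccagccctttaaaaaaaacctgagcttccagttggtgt
Isg15: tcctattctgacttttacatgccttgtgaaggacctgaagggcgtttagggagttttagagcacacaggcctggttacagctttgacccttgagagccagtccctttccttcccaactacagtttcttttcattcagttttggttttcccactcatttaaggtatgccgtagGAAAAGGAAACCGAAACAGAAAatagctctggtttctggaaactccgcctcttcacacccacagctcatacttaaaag
Bst2: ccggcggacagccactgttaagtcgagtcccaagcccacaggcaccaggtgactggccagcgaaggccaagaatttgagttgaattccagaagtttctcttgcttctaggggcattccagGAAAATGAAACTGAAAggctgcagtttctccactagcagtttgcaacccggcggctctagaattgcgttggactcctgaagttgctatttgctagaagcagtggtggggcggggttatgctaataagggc
Ifi44: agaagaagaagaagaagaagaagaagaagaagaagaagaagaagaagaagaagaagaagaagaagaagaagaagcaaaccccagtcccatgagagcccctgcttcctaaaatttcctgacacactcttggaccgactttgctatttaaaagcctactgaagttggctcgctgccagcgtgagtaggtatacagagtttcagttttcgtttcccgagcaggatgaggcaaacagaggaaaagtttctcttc

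Rsad2 held 1 match, 120 bases before its start. Ifit1 held 2, at 104 and 85 bases before the start, Ifit3 held 2, at 156 and 122, and Ifit3b held 2, at 188 and 154. The windows of Ifit3 and Ifit3b, neighbouring near-copies, shared an identical run of 169 bases. Isg15 held 3 overlapping matches, at 78, 72 and 66 bases before the start, and Bst2 held 2 overlapping ones, at 130 and 124. Ifi44 held none in these bases.

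A promoter window of 300 bases, reaching 50 bases past the start, was held for 33 of the 42 members. The ISRE core was found in 16 of those 33 (48.5%) and in 1079 of 27025 genes with a window (3.99%). The shorter core TTCNNNGAA, which reads the same on both strands and stands for the element bound by STAT dimers, was found in 8 of the 33 (24.2%) and in 9.55% of all genes. Among members that passed the test in MLN described below, 6 of 10 with a window held the ISRE core, and among the other members 10 of 23 did. The members were picked as interferon targets, so a high share of matches describes the choice of genes. A match is a string of letters, and no binding was measured here. The windows of Oas2, Usp18, Ifi27, Ifi27l2a, Parp9, Zbp1, Parp14, Rtp4 and Dhx58 were not used here.

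Levels below are log2 intensities relative to the 75th percentile of the same array, so 0 is the level of a probe at that percentile and a level of one gene is not set against that of another. The share of spots well above background was 50.1% to 56.8% per array. The cells carried the markers of CD8+ T cells, with 9 of 10 markers tested. Over the 8 total-cell arrays Cd8a lay between 5.22 and 5.90 and Cd8b1 between 8.20 and 8.70. Of 11 B cell markers 5 passed the filter (Cd79a, Cd79b, Pax5, Cd22 and Cr2), and others, such as Ms4a1, did not. Of these 5, between 3 and 5 were well above background on each array. Directions for the knockout arrays refer to their labels. Total cells ran on slides 1 and 2, each with knockout and WT arrays of both sites, and naive cells ran alone on slide 3, which leaves no comparison of naive with total cells. The labels name a matching control only for PLN, and the WT MLN array on the same slide served as control for each knockout MLN array. Nothing in the labels says that samples came from separate animals, and the submitters describe a design without replicates. The p-values come from 1 limma fit, which includes a genotype-by-site term and leaves 3 residual degrees of freedom. They therefore set fitted differences against the scatter of these arrays around that fit, which need not be the spread between animals. As RNA was taken from bulk samples, fewer responding cells and less RNA per cell cannot be told apart.

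In MLN, 41 of the 42 members were higher in the knockouts than in WT (2 against 2 arrays), with a median log2 difference of 0.97 against 0.018 over all features, of which 52.6% were higher. Of the 42, 13 rose past an adjusted p of 0.05 in limma, which is 31.0% of the members, while 0.125% of all features rose and 0.176% changed in either direction. The 13 were Ifi44, Rsad2, Ifit3b, Ifit3, Ifit1, Oasl2, Oas2, Oasl1, Cmpk2, Isg15, Oas1a, Usp18 and Rtp4. The other 29 had adjusted p-values from 0.0515 to 0.974, 7 of them under 0.1. Differences above 1 log2 unit were found for 21 members. In 38 members both knockout arrays lay above both WT arrays, against 15.7% of all features, and 39 had an unadjusted p under 0.05, against 13.8% of all features. The calls rest on the full set of arrays: 0 members passed when any 1 of the 12 arrays was left out, when only the 8 total-cell arrays were fitted, when each knockout was blocked with its WT array, or when no filter on dim probes was used.

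**Figure D1:**
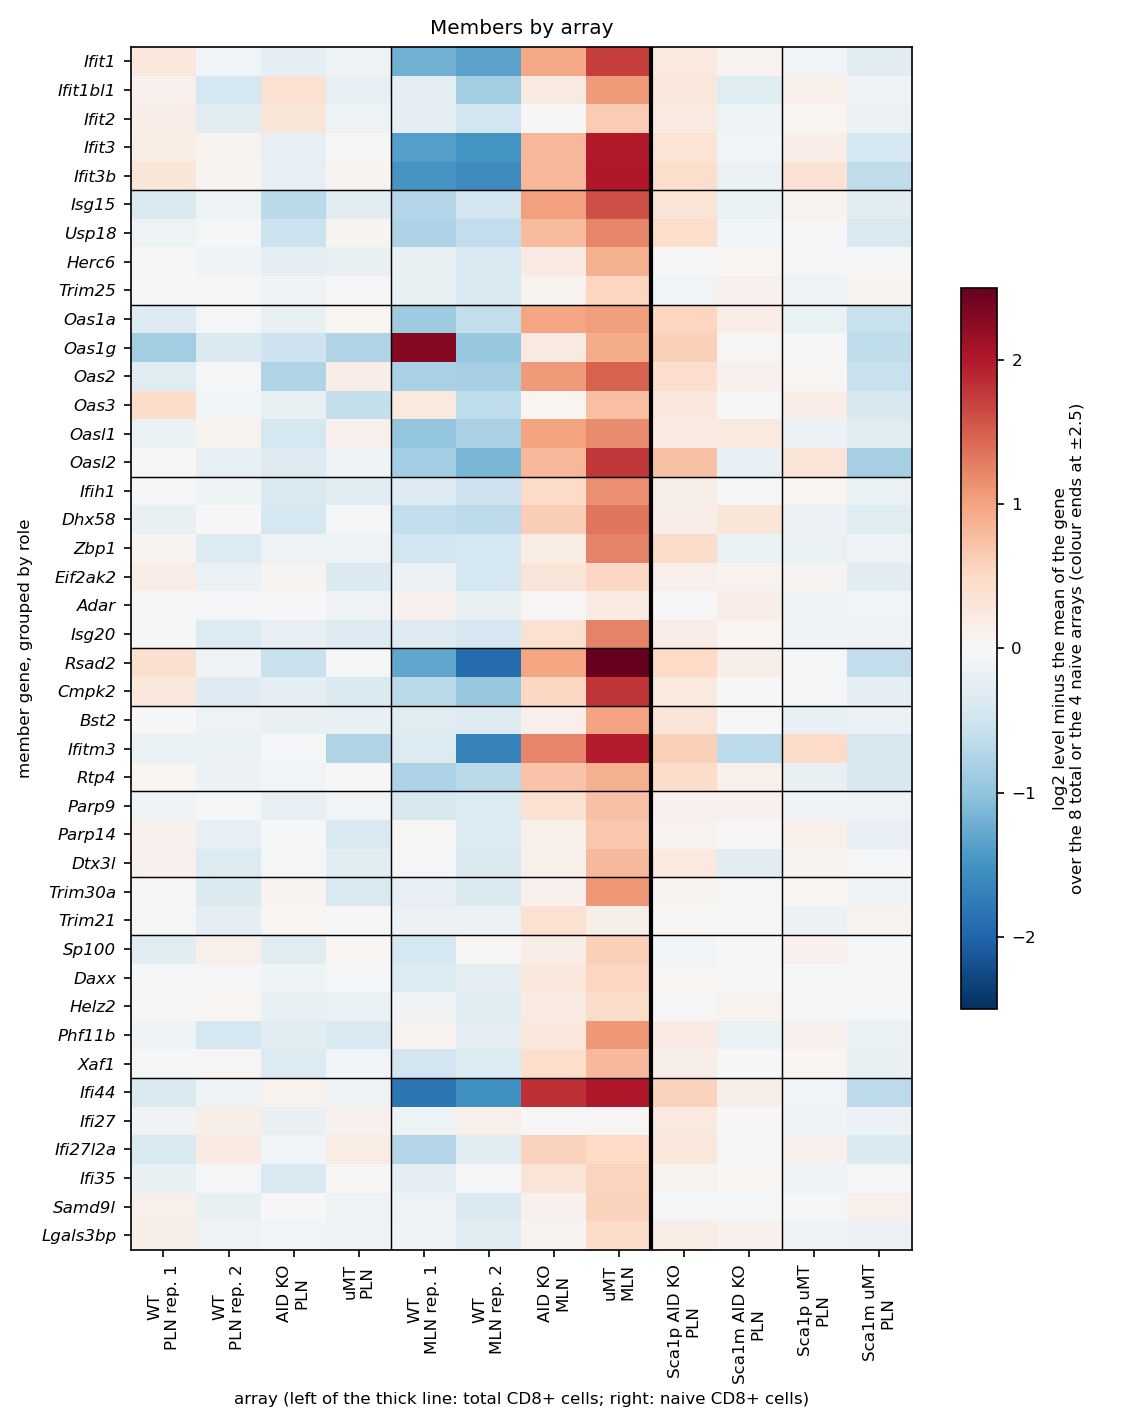
Heat map of the 42 members (one line per gene, by role) on the 12 arrays, where colour is the log2 level minus that gene's mean over the 8 total-cell arrays or over the 4 naive arrays. The AID KO MLN and uMT MLN columns are high and the WT MLN columns low for most members, and the columns of both knockouts in PLN stay near those of WT PLN.

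The IFIT proteins bind viral RNA that lacks the host cap structure and block its translation. Ifit1 stood at -0.09 and -0.24 in the WT MLN arrays, at 2.84 in uMT MLN and at 2.08 in AID KO MLN. In PLN it stood at 1.38 and 1.04 in WT, 0.88 in AID KO and 0.99 in uMT. The knockout MLN arrays were the highest of the 8 and the WT MLN arrays the lowest, with the PLN arrays between them. Ifit1 rose by 2.62 ± 0.11 (SE) in MLN, a 6.15-fold difference (adjusted p = 0.0195).

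Ifit3, whose product stabilises IFIT complexes, stood at 1.68 and 1.55 in WT MLN, 5.03 in uMT MLN and 3.87 in AID KO MLN, against 3.22, 3.14, 2.84 and 3.04 in WT PLN replicates 1 and 2, AID KO PLN and uMT PLN. Its near-copy Ifit3b stood at -0.53 and -0.62 in WT MLN, 2.94 in uMT MLN and 1.77 in AID KO MLN, against 1.24, 1.02, 0.74 and 1.02 in the same PLN arrays. Both showed the same order as Ifit1. Ifit3 rose by 2.84 ± 0.16 and Ifit3b by 2.93 ± 0.16 (both adjusted p = 0.0209), and because the transcripts are so alike their probes may share signal. Ifit1bl1 and Ifit2 differed by 1.20 and 0.67 and did not pass (adjusted p = 0.0734 and 0.181). Over the 5 IFIT members, 3 rose and the median difference was 2.62.

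ISG15 is a ubiquitin-like protein that is joined to viral and host proteins, and USP18 removes it and also restrains the interferon receptor. Isg15 stood at 3.73 and 4.01 in WT MLN, 6.08 in uMT MLN and 5.49 in AID KO MLN. Its levels in PLN were 4.12 and 4.34 in WT, 3.78 in AID KO and 4.18 in uMT, so the knockout MLN arrays stood above the other 6, which overlapped. Isg15 rose by 1.91 ± 0.15 in MLN (3.77-fold, adjusted p = 0.0386). Usp18 stood at 1.82 and 1.98 in WT MLN, 3.83 in uMT MLN and 3.39 in AID KO MLN, with PLN levels from 2.07 to 2.68. It rose by 1.71 ± 0.10 (adjusted p = 0.0217), with knockouts above and WT MLN below every PLN array. The ligase genes Herc6 and Trim25 differed by 0.82 and 0.60 and did not pass (adjusted p = 0.105 and 0.151).

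The OAS enzymes sense double-stranded RNA and make the oligoadenylate that activates RNase L, an activity that the OAS-like protein OASL1 lacks. Oasl2 stood at 0.93 and 0.65 in WT MLN, 3.56 in uMT MLN and 2.62 in AID KO MLN, against 1.83 and 1.59 in WT PLN, 1.69 in uMT PLN and 1.47 in AID KO PLN. Oas2 stood at 3.10 in both WT MLN arrays, 5.40 in uMT MLN and 4.98 in AID KO MLN, against 3.62 and 3.88 in WT PLN, 3.16 in the AID KO PLN array and 4.09 in that of uMT PLN. For both genes the knockout MLN arrays were highest and the WT MLN arrays lowest. Oasl2 rose by 2.30 ± 0.11 (4.91-fold, adjusted p = 0.0195) and Oas2 by 2.09 ± 0.13 (4.25-fold, adjusted p = 0.0258). Oasl1 and Oas1a also rose, 3.99-fold and 3.42-fold (adjusted p = 0.0195 and 0.0258), and Oas3 differed by 0.60 without passing (adjusted p = 0.237). The 6 OAS members had a median of 1.88 with 4 risen.

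Oas1g, a close copy of Oas1a, was the 1 member with a negative difference in MLN, at -0.10 ± 0.90 (adjusted p = 0.974). Its levels were -0.88 and -4.12 in WT MLN, -2.25 in uMT MLN and -2.94 in AID KO MLN, and -4.04, -3.53, -3.69 and -3.93 in WT PLN replicates 1 and 2, AID KO PLN and uMT PLN. WT MLN replicate 1 stood above all other arrays for this dim probe, and without it the difference was 1.45. No direction is read for Oas1g.

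The next members detect foreign RNA or act on it. Ifih1, which encodes the long double-stranded RNA sensor MDA5, stood at 0.19 and 0.00 in WT MLN, 1.65 in uMT MLN and 1.00 in AID KO MLN, with PLN levels from 0.16 to 0.48. The knockout MLN arrays were above the other 6, and the difference of 1.23 ± 0.11 just missed the threshold (adjusted p = 0.0515). Eif2ak2, which encodes the kinase PKR that halts translation, stood at 0.63 and 0.34 in WT MLN, 1.30 in uMT MLN and 1.09 in AID KO MLN, with PLN levels from 0.42 to 0.97. Its difference of 0.71 ± 0.11 did not pass (adjusted p = 0.141). Adar, which encodes the RNA-editing enzyme ADAR1, stood at 2.87 and 2.59 in WT MLN and at 2.79 and 2.97 in AID KO MLN and uMT MLN. These overlapped, and the difference was 0.15 ± 0.11 (adjusted p = 0.581). A second, dimmer Adar probe differed by 0.41. Dhx58, a regulator of RNA sensing, Isg20, an exonuclease, and Zbp1, a sensor of Z-form nucleic acid, differed by 1.62, 1.19 and 1.17 (adjusted p = 0.0515, 0.0839 and 0.187), so 0 of the 6 in this group passed and its median was 1.18.

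Rsad2 encodes viperin, an enzyme that turns CTP into a chain terminator of viral polymerases, and its neighbour Cmpk2 encodes a nucleotide kinase. Rsad2 stood at -1.54 and -2.18 in WT MLN, 2.30 in uMT MLN and 0.74 in AID KO MLN. In PLN it stood at 0.16 and -0.33 in WT, -0.81 in AID KO and -0.30 in uMT. The knockout MLN arrays were the highest of the 8, the WT MLN arrays the lowest, and the PLN arrays lay between them. Rsad2 rose by 3.38 ± 0.11, or 10.4-fold (adjusted p = 0.0195), and its second probe differed by 3.53. Cmpk2 rose by 1.97 ± 0.14 (adjusted p = 0.037).

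**Figure D2:**
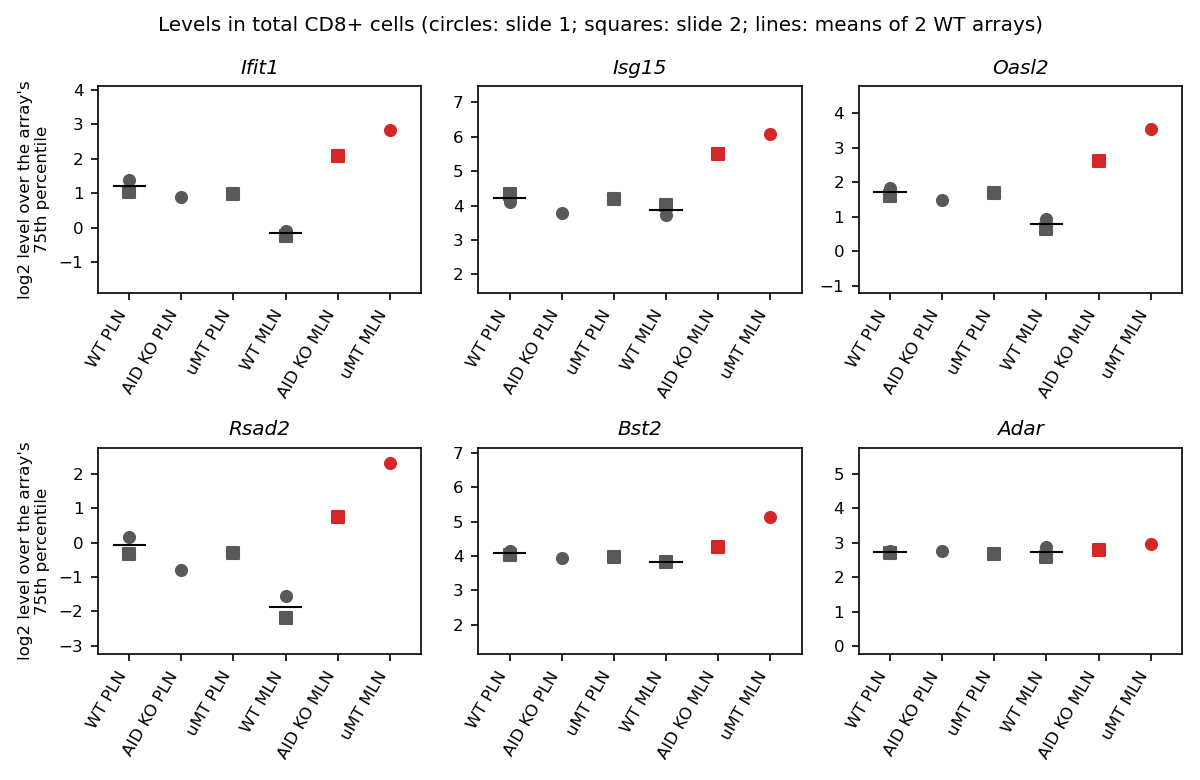
Log2 level relative to the array's 75th percentile (vertical axis) of Ifit1, Isg15, Oasl2, Rsad2, Bst2 and Adar on the 8 total-cell arrays, by genotype and site along the horizontal axis, with circles for slide 1, squares for slide 2, red for the knockout MLN arrays and a line at the mean of the WT arrays of a site. For Ifit1, Oasl2 and Rsad2 the 2 knockout MLN points lie above and the 2 WT MLN points below all PLN points of total cells, while the Adar points of WT and knockout MLN overlap.

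Of the membrane effectors, BST2 (tetherin) holds budding virions to the cell surface, IFITM3 blocks fusion in endosomes and RTP4 is an RNA-binding and receptor-trafficking protein. Bst2 stood at 3.85 and 3.83 in WT MLN, 5.14 in uMT MLN and 4.27 in AID KO MLN, with PLN levels from 3.95 to 4.15. The uMT MLN array stood furthest apart, and the difference of 0.87 ± 0.17 did not pass (adjusted p = 0.184). Ifitm3 was not well above background in WT MLN (-4.20 and -5.52) and stood at -1.89 in uMT MLN and -2.63 in AID KO MLN, with PLN levels from -4.61 to -3.91. Against the dimmest signal called well above background it was at least 4.01-fold higher, with a fitted difference of 2.60 ± 0.33 that did not pass (adjusted p = 0.0935). Rtp4 rose by 1.52 ± 0.12 (adjusted p = 0.0386), from 4.06 and 4.17 in WT MLN to 5.54 and 5.73.

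Ifi44 encodes a cytoplasmic interferon-induced protein. It was not well above background in WT MLN (-4.59 and -4.29) and stood at -0.78 in uMT MLN and -0.95 in AID KO MLN, with PLN levels from -3.15 to -2.69. The knockout MLN arrays were alone at the top, at least 9.98-fold above WT MLN (fitted difference 3.58 ± 0.18, adjusted p = 0.0195).

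The remaining groups moved less. PARP9 and DTX3L form an ADP-ribosylation and ubiquitin ligase pair, and the 3 genes Parp9, Parp14 and Dtx3l differed by 0.92, 0.55 and 0.67. The TRIM genes Trim30a and Trim21, ubiquitin ligases, differed by 0.88 and 0.41. The 5 genes of nuclear factors, Xaf1, Phf11b, Daxx, Sp100 and Helz2, lay between 0.50 and 1.03, with a median of 0.71. Among the other induced genes besides Ifi44, Ifi27l2a differed by 1.04, Samd9l by 0.57, Ifi35 by 0.56, Lgals3bp by 0.44 and Ifi27 by 0.022. None of these 15 passed, with the lowest adjusted p at 0.0727 (Xaf1). Second probes of Helz2 and Ifi27l2a differed by -0.00 and 1.55.

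With each array set against its slide's WT array, AID KO MLN had a member median of 0.76 and uMT MLN one of 1.29, and the medians over all features were -0.0083 and 0.04. In 40 members both MLN pairs were positive, against 29.2% of all features, and in 36 members the uMT difference was the larger. Across the 42 members these pairs, which share no array, correlated at 0.84 (Pearson) and 0.83 (Spearman), against 0.15 (Pearson) across all features, where genes are not independent replicates. The WT MLN arrays differed from each other by a median of -0.14 over members (replicate 2 minus replicate 1), less than either pair. Over both sites, 39 of 42 members were higher in uMT than in AID KO total cells, with a median of 0.27 against 0.011 over all features. None of the 42 passed, while 0.164% of all features changed, and the largest differences were 1.03 for Rsad2 (adjusted p = 0.0729), 0.72 for Ifit3b and 0.68 for Ifit3.

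**Figure D3:**
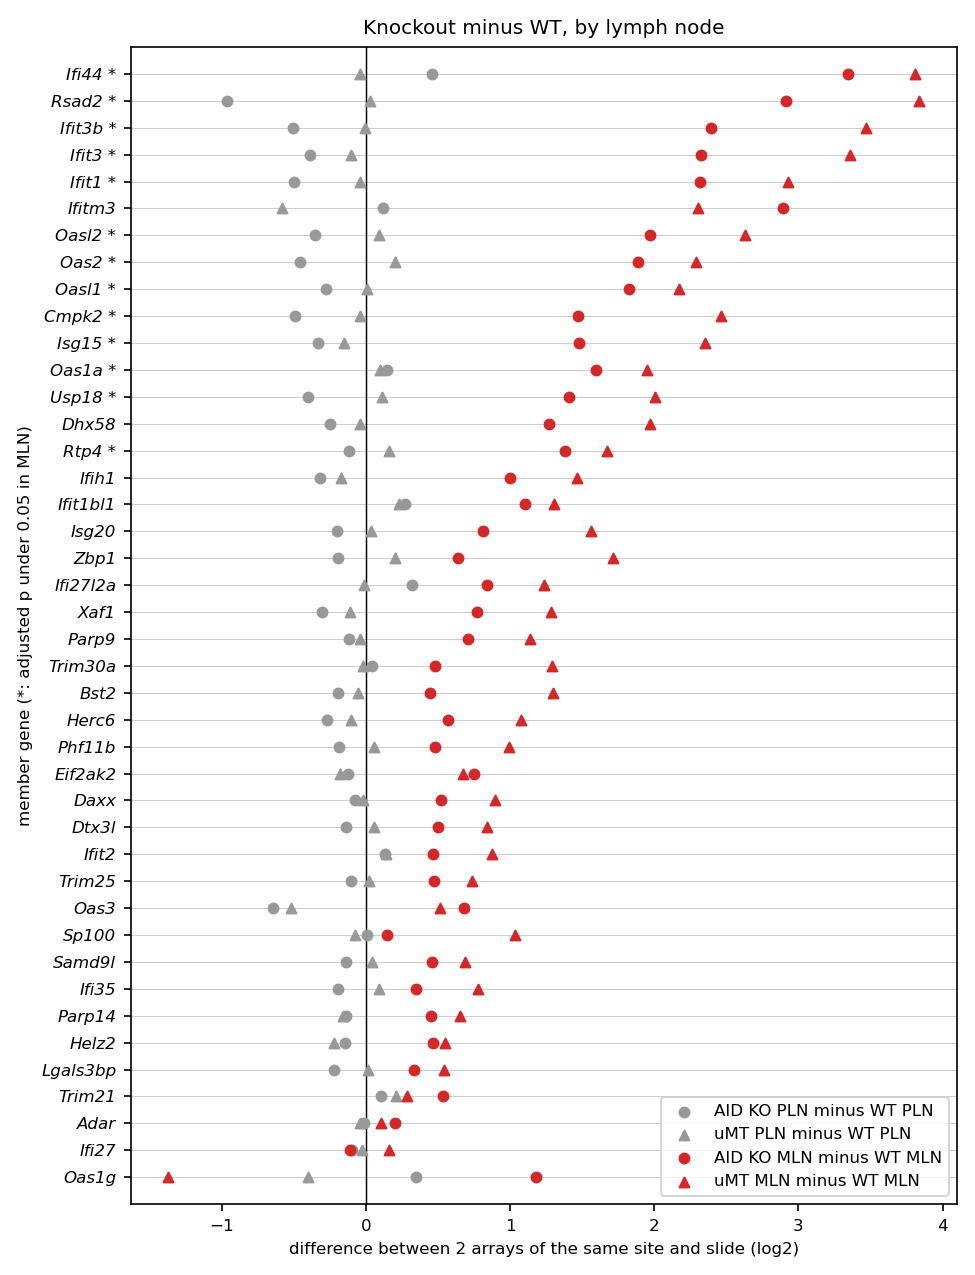
Log2 difference of each knockout array from its matched WT array (same site, same slide) (horizontal axis) for the 42 members (vertical axis). Genes are ordered by their difference in MLN, with the largest at the top. Red marks MLN, grey PLN, circles AID KO and triangles uMT, and a star marks genes whose adjusted p in MLN is under 0.05. The red points lie to the right of 0 for 40 members in both pairs, and the grey points lie around 0.

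In PLN the members lay near 0 in the same genotypes. The differences of knockouts from WT (2 against 2 arrays) ranged from -0.58 for Oas3 to 0.25 for Ifit1bl1, with a median of -0.10 against 0.0052 over all features, and 9 of 42 members were higher. None passed in limma (lowest adjusted p = 0.394, for Rsad2 at -0.47), 2 members had an unadjusted p under 0.05 against 8.87% of all features, and 0% of all features were called. The groups did not overlap for 10 members that were lower, against 11.3% of all features, and for 1 that was higher, against 13.9%. The number of higher members depends on scaling, at 9 as given and 19 when each array is centred on its median. Against its slide's WT array, AID KO PLN had a median of -0.17 and uMT PLN one of -0.024, and across members the pairs correlated at 0.02.

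The test of whether the knockout difference was larger in MLN than in PLN gave positive values for 41 of 42 members, with a median of 1.01 against 0.014 over all features. None of the 42 passed after adjustment in limma, and neither did any other feature (0% of all features called), while 37 members had an unadjusted p under 0.05 against 4.32% of all features. The largest values were 3.85 ± 0.16 for Rsad2 (adjusted p = 0.067), 3.37 for Ifi44 (0.108), 3.19 for Ifit3b (0.0974), 3.09 for Ifit3 (0.0974) and 2.89 for Ifit1 (0.0914). So the site dependence of these differences was large in size and was not established by this test. With other processing the number of members that passed was between 0 and 14. The share of all features called in those settings is not given here.

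Levels by site were then set side by side within a genotype. In WT mice 40 of 42 members were lower in MLN than in PLN, with a median of -0.32 against -0.018 over all features. None of the members passed, while 0.0117% of all features were called, and 24 members had both MLN arrays below both PLN arrays, against 12.3% of all features, and 21 had an unadjusted p under 0.05, against 6.49%. The member values nearest the threshold were -1.78 ± 0.11 for Rsad2 (adjusted p = 0.0758) and -1.37 ± 0.11 for Ifit1 (adjusted p = 0.0846). Ifit3b and Ifit3 differed by -1.71 and -1.57 (adjusted p = 0.12 and 0.148), and Isg15 by -0.36. The difference was seen on both slides, with medians of -0.31 and -0.35. On both slides 37 members were lower, against 33.3% of all features. These WT MLN arrays are also the controls of the MLN comparison, so their low levels enter both.

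In the knockouts the order was the other way, in a comparison added after the values were seen. All 42 members were higher in MLN than in PLN, with a median of 0.81 against 0.0085 over all features, and in 39 both MLN arrays lay above both PLN arrays, against 9.66% of all features. An unadjusted p under 0.05 was found for 37, against 7.17% of all features. Rsad2 rose by 2.07 ± 0.11 (adjusted p = 0.0467) and was the 1 member that passed, while 0.0195% of all features rose. That call was lost without any 1 array and with quantile normalization, no filter, the mean of probes, no slide term or the total-cell arrays alone. Isg15 differed by 1.80, Ifit1 by 1.52 and Oasl2 by 1.51 (adjusted p = 0.0716, 0.0662 and 0.0662). Against WT PLN, the knockout MLN levels were higher on both arrays than on both WT PLN arrays for 37 of 42 members, against 16.9% of all features. The knockout MLN arrays were the 2 highest of the 8 total-cell arrays for 34 members, against 3.48% of all features, and the WT MLN arrays the 2 lowest for 18, against 3.03%.

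In naive cells the sort by Sca-1, the product of the interferon-inducible gene Ly6a, set members apart by less. The Sca1p fractions were higher than the Sca1m fractions (2 against 2 arrays) for 36 of 42 members, with a median of 0.21 against 0.0085 over all features. None of the members passed in limma (lowest adjusted p = 0.191), while 0.0195% of all features rose, and 13 members had an unadjusted p under 0.05 against 7.86% of all features. In 16 members both Sca1p arrays lay above both Sca1m arrays, against 18.8% of all features. Higher in both genotypes were 29 members, against 26.8% of all features, and lower in both were 3, against 23.5%. The other 10 had opposite signs, among them Zbp1 (0.62 in AID KO and -0.044 in uMT) and Bst2 (0.31 and -0.033). Ly6a itself, which the sort selects, stood at 4.41 and 3.94 in Sca1p and 0.57 and 0.43 in Sca1m.

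Oasl2 stood at 2.16 in Sca1p and 1.22 in Sca1m of AID KO, and at 1.75 and 0.59 in uMT. Both Sca1p arrays lay above both Sca1m arrays, and the difference of 1.05 ± 0.11 did not pass (adjusted p = 0.191). Ifit3b stood at 0.62 and 0.02 in AID KO and at 0.55 and -0.45 in uMT, with a difference of 0.80 (adjusted p = 0.369). Ifit3 stood at 2.57 and 2.16 in AID KO and 2.40 and 1.79 in uMT, a difference of 0.51 (adjusted p = 0.529). All 3 genes had Sca1p above Sca1m in both genotypes, without overlap. Ifi44 stood at -1.79 and -2.22 in AID KO and -2.43 and -3.02 in uMT, and its fractions overlapped across genotypes (0.52, adjusted p = 0.607).

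Ifitm3 stood at -3.24 and -3.36 in the Sca1p arrays and was not well above background in Sca1m (-4.49 and -4.23), which makes it at least 1.75-fold higher (fitted difference 1.06, adjusted p = 0.527). Oas1g stood at -3.38 and -3.97 in Sca1p, where 1 of 2 arrays was well above background, and at -3.96 and -4.60 in Sca1m, where neither was. Its fractions overlapped (fitted difference 0.61, adjusted p = 0.929), and no fold is given. The other best known members differed by less. Rsad2 differed by 0.47, Usp18 by 0.44, Isg15 by 0.43, Eif2ak2 by 0.20, Ifih1 by 0.19, Ifit1 by 0.18, Bst2 by 0.14 and Adar by -0.10.

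**Figure D4:**
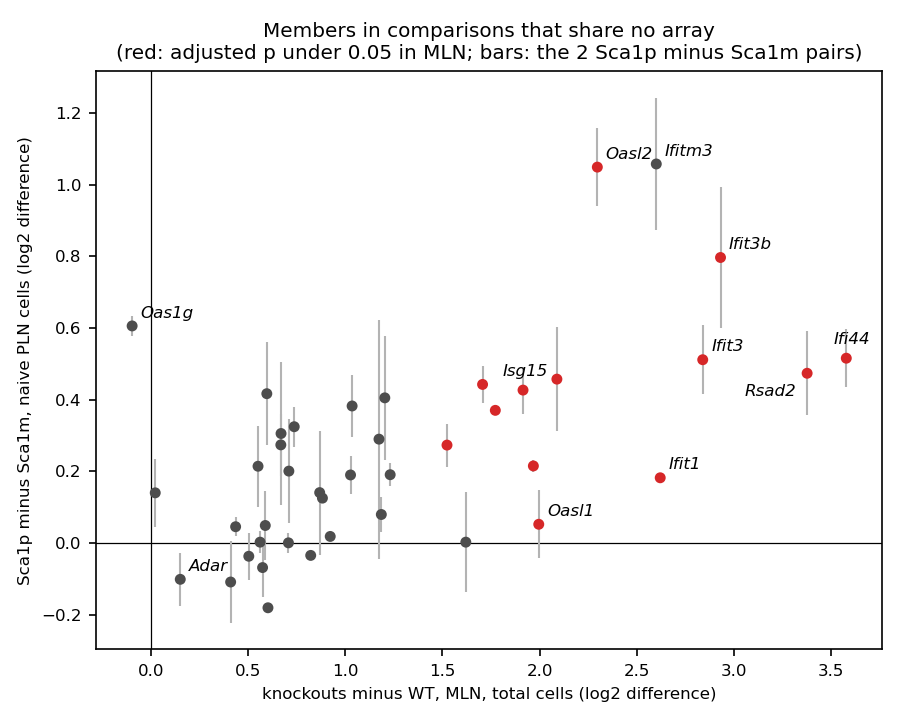
Each of the 42 members by its log2 difference of knockouts from WT in MLN (horizontal axis) and of Sca1p from Sca1m in naive cells (vertical axis). In 35 members both values are above 0, the fewest possible given how many lie above 0 on each axis. The horizontal spread, up to 3.58, is larger than the vertical one, up to 1.06.

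Across the 42 members, the difference in MLN and that between the sorted fractions correlated at 0.59 (Pearson and Spearman alike), and these comparisons share no array. The points share the probes and their brightness, so this is a description. Oasl2 and Ifit3b were large in both, while Ifit1 and Oasl1 were large in MLN and small between the fractions, at 0.18 and 0.05. The OAS family and the IFIT genes had medians of 0.44 and 0.41 between the fractions, and the TRIM pair had 0.01.

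Within naive cells the sign between the genotypes was the opposite one. In 37 of 42 members the uMT arrays were lower than the AID KO arrays, with a median of -0.21 against 0.011 over all features. None of the members passed, while 0.141% of all features were called, and in 21 both uMT arrays lay below both AID KO arrays, against 14.4% of all features. An unadjusted p under 0.05 was found for 11 members, against 8.52% of all features. Oas1a differed by -0.72 (adjusted p = 0.159), Ifi44 by -0.72 (adjusted p = 0.353), Rsad2 by -0.63 (adjusted p = 0.203) and Oasl2 by -0.52 (adjusted p = 0.269). There was no WT array of naive cells, so neither genotype can be placed against WT.

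Other genes of the pathway were followed in MLN as lists of receptors and signalling genes, ligands, sensors and other interferon-stimulated genes. Of 14 receptor and signalling genes tested, 10 were higher and 1 rose, Irf7, the factor that amplifies interferon production, by 1.53 (adjusted p = 0.0258). Their median was 0.25, with Socs1, a feedback inhibitor, at 0.88 and Stat2 at 0.83 (adjusted p = 0.194 and 0.0926). Of 10 ligand genes tested of 18, 3 were higher and none passed, and their median was -0.03. Their probes were dim, with median levels of -3.96 and -3.32 in WT MLN, -4.24 in uMT MLN and -3.06 in AID KO MLN. Well above background were 5 of the 10 in WT MLN replicate 1, 10 in replicate 2, 4 in uMT MLN and 9 in AID KO MLN. Ifna11, Ifnab and Ifna14 differed by 0.71, 0.60 and 0.24, Ifna2 by -2.30 and Ifng by -0.79 (-1.24 and -0.34 in the AID KO and uMT pairs), and the other 5, Ifna1, Ifna5, Ifna9, Ifnk and Ifnl3, lay between -0.15 and -0.00. The Ifna2 value rests on WT MLN replicate 1, which stood at -0.28 against -3.67 in replicate 2, and the pairs gave -0.07 in AID KO and -4.54 in uMT. Probes of the Ifna genes, close paralogs, may share signal.

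Of 10 sensor and adaptor genes tested, 9 were higher and none passed (median 0.18), with Tlr7 at 1.00, Ifi204 at 0.46 and Ddx58 at 0.41. Of 47 other interferon-stimulated genes, 44 were higher and 3 rose (median 0.46), namely the GTPase genes Gm4951 by 2.67 and Iigp1 by 2.33 and Slfn5 by 1.58 (adjusted p = 0.0378, 0.0252 and 0.0284). Ly6a differed by 1.51 and just missed the threshold (adjusted p = 0.0516). Between the sorted naive fractions, 1 gene of these lists passed, Ly6a, which the sort selects, and the list medians were 0.10 for signalling, 0.12 for ligands, 0.09 for sensors and 0.16 for the other stimulated genes.

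Markers of other cells moved with some of these arrays, and none of them passed in MLN. The summed level of the NK and innate-like markers (6 of 8 tested, in multiples of the array's 75th percentile) was 37.3 and 39.2 in WT MLN, 55.5 in uMT MLN and 58.6 in AID KO MLN. It was also higher in the PLN knockouts (61.1 and 63.0) than in WT PLN (51.9 and 49.2). A sum of this kind is weighted to its brightest markers. The median level of these 6 markers was -2.68 and -2.62 in WT MLN, -2.71 in uMT MLN and -2.29 in AID KO MLN. In the AID KO and uMT MLN pairs Klrd1 differed by 0.56 and 0.58, and Tyrobp by 0.93 and 1.01. Klrk1 differed by 2.24 and 0.93 and Zbtb16 by 0.36 and 0.21. Fcer1g differed by 0.71 and -0.54 and Klrb1c by -0.34 and 0.065. Summed erythroid markers (3 of 7 tested) were 4.17 and 6.46 in WT MLN, 13.1 in uMT MLN and 2.77 in AID KO MLN, and macrophage markers (4 of 7 tested) were 5.22 and 5.39 in WT MLN and 4.14 and 3.26 in the knockouts. Summed plasma cell markers (4 of 7 tested) were 17.6 and 14.1 in WT MLN and 12.7 and 12.6 in AID KO MLN and uMT MLN. In PLN they were 18.2 and 15.0 in WT, 12.7 in AID KO and 14.4 in uMT. Xbp1 differed by -0.16 and -0.50 in the AID KO and uMT MLN pairs, and Jchain by 0.25 and -2.41. Sdc1 differed by 0.40 and -0.87 and Prdm1 by -0.37 and 0.048. Summed B cell markers (5 of 11 tested) were 7.55 and 7.52 in WT MLN. They were 9.02 in AID KO MLN and 8.81 in the uMT MLN array. Their median level was -2.89 and -2.58 in WT MLN, -3.56 in the uMT MLN array and -1.92 in that of AID KO MLN. Against the WT array of its slide, the uMT MLN array differed by -1.45 for Pax5, -0.67 for Cr2 and -0.08 for Cd22. For Cd79b it differed by 0.25 and for Cd79a by 0.32. The AID KO MLN pair gave differences from 0.05 (Cd22) to 0.65 (Cr2) for these 5 markers. Summed dendritic cell markers (4 of 9 tested) were 1.36 and 1.34 in WT MLN, 1.41 in uMT MLN and 2.18 in AID KO MLN. Plasmacytoid dendritic cell markers (7 of 8 tested) were 93.9 and 106 in WT MLN and uMT MLN of 1 slide and 190 and 180 in WT MLN and AID KO MLN of the other. Their part in the member differences was not tested.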

How the data were processed

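RNA of 12 samples was hybridised with Cy3 to Agilent arrays, 1 sample per array. Per the file headers, each deposited scanner file gives a processed intensity per spot, background-subtracted by Agilent Feature Extraction 11.0.1.1 (per the submitters' processing notes) without normalization between arrays. Other values used from the deposited files are the median and background intensity, for 1 alternative, and flags of 0 or 1 for spots well above background, saturated or outlying. The authors' deposited series matrix holds log2 values that were quantile normalized within each slide, and served as an alternative.

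From these files, outlier-flagged spots (61 to 342 per array) were dropped, none was saturated, and spots of 1 probe were averaged. Log2 intensities were shifted to an equal 75th percentile (303.1 to 538.6 before the shift). Probes well above background on at least 2 arrays were kept and named through their transcript accession and the RefSeq table of GRCm38.p6, which gave a symbol to 32994 of 56605 probes. Each gene was represented by its brightest kept probe. One fit in limma 3.58.1 (R 4.3.3) covered all 12 arrays and left 3 residual degrees of freedom. Its moderated tests were two-sided, adjusted by Benjamini-Hochberg over 25599 features at a threshold of 0.05. Figures were drawn with matplotlib 3.10.9. The gene targeted in the arrays labelled AID KO is not reported here. Where a group was not well above background on any of its arrays, a bound was computed against the higher of the probe's own level and the lowest signal called well above background on each array, averaged over arrays. The number of arrays limits the precision.

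Per-array values are given for the 8 members with the largest difference in MLN, for the 6 largest between sorted fractions with 1 sign in both pairs, and for the best known member of each role. Other members are given by counts and ranges. The members, lists and tests were chosen with earlier results of these data known. Alternatives were quantile normalization, median centring, normexp (with an offset of 50, on the median signal in place of the mean signal), the series matrix, a filter of at least 6 arrays, no filter, the mean of a gene's probes, matched pair blocks, no slide term, no genotype-by-site term, arrays of 1 cell type only, and leaving out each array.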

Additional observations from a re-analysis of the deposited data

Results flagged for a closer look

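For 17 members every knockout MLN array stood above the WT array of its slide while every knockout PLN array stood below its own. The share of all features with this joint pattern was not computed. Both MLN pairs were positive for 40 of 42 members, against 29.2% of all features. Both PLN pairs were negative for 18 of 42, against 25.8% of all features. The knockout difference in MLN minus that in PLN was 3.19 for Ifit3b, 3.09 for Ifit3, 2.89 for Ifit1, 2.24 for Cmpk2, 2.16 for Isg15, 1.77 for Dhx58, 1.48 for Ifih1, 1.24 for Xaf1, 1.18 for Oas3, 1.01 for Herc6, 1.00 for Parp9, 0.99 for Bst2, 0.86 for Eif2ak2, 0.76 for Daxx, 0.70 for Parp14, 0.69 for Helz2 and 0.18 for Adar. The sign pattern itself was not tested, and the limma test of the difference gave adjusted p-values from 0.0914 (Ifit1) to 0.999 (Adar), so none passed. Each sign rests on 1 array per genotype and site.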

How the results depend on the processing

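The number of members that rose in MLN was 13, against 20 with normexp (13 of them shared), 20 of 39 tested in the series matrix (12 shared), and 0 with no filter, with matched pair blocks or with the 8 total-cell arrays alone. It was between 13 and 17 with quantile normalization, median centring, a filter of at least 6 arrays, the mean of probes or no slide term. Over all features, 45 passed in MLN, against 81 with median centring, 100 with normexp, 122 in the series matrix, 75 with at least 6 arrays, and 0 with no filter, pair blocks or total-cell arrays alone. For the knockout difference in MLN minus PLN, 0 members passed, against 6 with median centring, 14 with normexp, 11 in the series matrix and 6 with at least 6 arrays. For uMT versus AID KO in total cells it was 0, against 1 with normexp, 1 in the series matrix and 1 with at least 6 arrays. For MLN versus PLN in WT it was 0, against 1 with median centring, 4 with normexp, 3 in the series matrix and 1 with at least 6 arrays, and the median of -0.32 became -0.36 with median centring and -0.26 with normexp. For MLN versus PLN in the knockouts it was 1, against 16 with normexp, 13 in the series matrix, 7 with at least 6 arrays, and 0 with quantile normalization, no filter, the mean of probes, no slide term or total-cell arrays alone. For these other comparisons the calls over all features in each setting are not given here. In knockouts versus WT in MLN such calls rose in several of the same settings, so a larger member count alone is not a result about the members. The Sca1p median of 0.21 was 0.14 with median centring, and 29 members were higher there against 36. The naive genotype median of -0.21 was -0.16 with median centring, -0.17 with normexp and -0.19 with the mean of probes.

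Leaving out each of the 12 arrays in turn gave 0 to 0 members called in every comparison of the members. The medians then ranged from 0.77 to 1.27 for knockouts versus WT in MLN, -0.25 to 0.0232 in PLN, 0.83 to 1.28 for MLN minus PLN, 0.15 to 0.44 for uMT versus AID KO in total cells, -0.39 to -0.26 for MLN versus PLN in WT, 0.63 to 0.98 in the knockouts, 0.20 to 0.23 for Sca1p versus Sca1m, and -0.21 to -0.17 for uMT versus AID KO in naive cells. Signs turned for Oas1g, which ranged from -1.65 without WT MLN replicate 2 to 1.45 without WT MLN replicate 1 in MLN, and from -1.62 to 1.48 without the same arrays in MLN minus PLN. Signs also turned for Ifi27 in MLN (-0.0766 with quantile normalization, -0.0679 in the series matrix, and from -0.0770 without uMT MLN to 0.121 without AID KO MLN when 1 array was left out), and for Bst2 in Sca1p versus Sca1m (-0.0326 without either AID KO array, to 0.31 without either uMT array). Signs in MLN were followed for all members, and those in MLN minus PLN and in Sca1p versus Sca1m only for members given by array. In the Sca1p pairs 10 members had opposite signs, among them Zbp1 (0.62 in AID KO and -0.044 in uMT). The cause of these changes was not tested, beyond the fewer arrays and degrees of freedom of the smaller fits. The labels give groups no shared replicate numbers, and the pair block matched each knockout to the WT array of its slide and site. Dim probes (Ifi44, Ifitm3, Oas1g) have only bounds on some arrays.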

Other observations

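Besides the members and the 4 pathway genes, 28 features passed in knockouts versus WT in MLN, 15 of them named and 13 unnamed. These include Oas1f, a further OAS gene that is not a member, which rose by 1.75, and the stress-response genes Atf3, Maff and Nfil3, which encode transcription factors and fell by 3.62, 2.19 and 1.61. They were singled out after their values were seen. Without any 1 of the 12 arrays, 0 to 2 features passed in this comparison.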
